A study of Mus musculus with 27 samples.

Results

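The nuclear-encoded respiratory chain genes are the subunits of complexes I to V that are transcribed in the nucleus, together with the assembly factors that share their names. They were found in the expression table by symbol (names starting with Nduf, Uqcr, Cox4 to Cox8 or Atp5, the 4 Sdh genes and Cyc1, without processed pseudogenes). Of 92 matching symbols among 19069 genes with a symbol, 86 reached a normalised read level of 1 CPM (read counts scaled to library size) in at least 3 of the 27 libraries, out of 13297 genes that did so in all. These 86 members comprised 36 genes of complex I, 4 of complex II, 9 of complex III, 13 of complex IV, 16 of complex V and 8 assembly factors (Ndufaf1 to Ndufaf7 and Atp5sl).

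RNA was sequenced from bone marrow-derived macrophages of C57BL/6 mice, which are macrophages grown in culture from femur and tibia marrow. Marrow cells received 5 Gy from a FLASH proton beam, 5 Gy from a standard proton beam, or no irradiation. All cultures were then given CSF-1 (10 ng/ml) for 7 days to form macrophages, followed by 2 days with IL-4 at 20 ng/ml (M2), LPS at 100 ng/ml (M1) or control medium (M0). The 9 groups of FLASH, standard and non-irradiated cells in the M2, M1 and M0 states had 3 libraries each. Whether the 3 came from different animals or cultures is not given. Every p-value below is therefore about the variation among libraries within groups, which may be technical. In the main fit that variation was estimated for each gene over all 9 groups together, including 5 libraries that did not follow their labels.

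Complex I (NADH dehydrogenase) and complex II (succinate dehydrogenase) feed electrons into the chain, complex III passes them to cytochrome c, complex IV (cytochrome c oxidase) reduces oxygen, and complex V (ATP synthase) uses the resulting proton gradient to make ATP. Most subunits are encoded in the nucleus and imported, while a small core is encoded by mitochondrial DNA. In mouse macrophages IL-4 is known for a metabolism that leans on oxidative phosphorylation, and LPS for a shift towards glycolysis in which succinate dehydrogenase and complex I take other roles.

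Promoters of respiratory chain genes are known for sites of NRF1, of the ETS-family factor GABP and of YY1, so the RefSeq promoter windows (GRCm38.p6, 250 bases before to 50 after the start) of the members were searched on both strands. The letters were GCGCANG for NRF1, CCGGAAG for ETS factors and AAGATGG for YY1. A window was found for 72 of the 86 members, 3 of them through a synonym. The NRF1 letters occurred in 48.6% of these members (35 of 72) and in 33.3% of the 9903 tested genes with a window. The ETS letters occurred in 23.6% of members and 19.1% of tested genes, and the YY1 letters in 16.7% of members and 8.27% of tested genes. These shares were not tested, a match is a match of letters only, and a stretch without one says nothing about the factor. The 200 bases before the start are shown for 5 members, on the gene's own strand, 5′ to 3′, with every match to the NRF1 or ETS letters in capitals; none of them held the YY1 letters there. They were chosen after the matches were seen, to show members with several matches beside 2 members that the expression results turn on, Atp5b with none in this stretch and Cox7a2l with 1.

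Ndufb4 (chr16:37654369-37654568 on the minus strand): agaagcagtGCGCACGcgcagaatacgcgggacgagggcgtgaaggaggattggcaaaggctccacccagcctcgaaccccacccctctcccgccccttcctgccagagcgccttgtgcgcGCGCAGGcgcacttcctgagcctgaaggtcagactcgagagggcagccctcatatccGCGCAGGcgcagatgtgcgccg
Sdhd (chr9:50603850-50604049 on the minus strand): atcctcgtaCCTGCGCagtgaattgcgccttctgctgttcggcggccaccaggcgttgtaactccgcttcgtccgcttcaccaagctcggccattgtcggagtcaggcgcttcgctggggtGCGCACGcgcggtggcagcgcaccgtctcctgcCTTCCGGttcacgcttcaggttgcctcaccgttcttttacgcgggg
Cox6a1 (chr5:115348959-115349158 on the minus strand): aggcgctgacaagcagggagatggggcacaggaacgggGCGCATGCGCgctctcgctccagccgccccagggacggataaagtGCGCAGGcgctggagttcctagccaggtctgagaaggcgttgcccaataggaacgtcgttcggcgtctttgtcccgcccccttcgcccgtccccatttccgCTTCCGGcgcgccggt
Atp5b (chr10:128083107-128083306 on the plus strand): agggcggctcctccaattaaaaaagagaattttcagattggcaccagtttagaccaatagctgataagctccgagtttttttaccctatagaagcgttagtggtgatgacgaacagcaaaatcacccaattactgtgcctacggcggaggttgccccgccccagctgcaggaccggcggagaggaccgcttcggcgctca
Cox7a2l (chr17:83514334-83514533 on the minus strand): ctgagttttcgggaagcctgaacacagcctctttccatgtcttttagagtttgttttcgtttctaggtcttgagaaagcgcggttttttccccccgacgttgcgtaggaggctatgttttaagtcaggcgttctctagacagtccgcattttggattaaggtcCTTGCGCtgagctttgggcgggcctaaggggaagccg

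Ndufb4, a membrane-arm subunit of complex I, carried 3 NRF1 matches. Sdhd, a membrane anchor of succinate dehydrogenase, carried 2 NRF1 matches and 1 ETS match. Cox6a1, the widely expressed form of a complex IV subunit, carried 3 NRF1 matches, a pair of which overlap on opposite strands, and 1 ETS match. All 3 were called higher in non-irradiated M2 than in M0 cells, as was Atp5b, the catalytic beta subunit of ATP synthase, while Cox7a2l was not called. Among members with a window, 26 were called higher in non-irradiated M2 cells and 46 were not. The NRF1 letters occurred in 61.5% (16) of those called and 41.3% (19) of the others. The ETS letters went the other way, at 15.4% (4) and 28.3% (13), and the YY1 letters stood at 15.4% (4) and 17.4% (8). These splits were not tested.

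The libraries did not all follow their state labels. Summed over 5 IL-4 response genes, 7 of the 9 libraries labelled M2 held 9434 to 10759 CPM, whereas the libraries labelled FLASH M2 replicate 1 and standard M2 replicate 1 held 164 and 196 CPM. The same 2 libraries held 2224 and 2481 CPM of 6 LPS response genes, against 19.6 to 62.3 CPM in the other libraries labelled M2. The libraries labelled FLASH M1 replicate 1 and standard M1 replicate 1 held 35.8 and 38.3 CPM of the LPS genes, against 1775 to 3393 CPM in the other 7 labelled M1. The library labelled FLASH M1 replicate 1 held 672 CPM of the IL-4 genes and that labelled standard M1 replicate 1 held 9756 CPM. The other 7 labelled M1 held 175 to 352 CPM of the IL-4 genes. The library labelled FLASH M0 replicate 1 held 10422 CPM of them, against 655 to 1705 CPM in the other 8 labelled M0. These 5 libraries stand in the groups their labels give in the main values. The total of called members in each comparison below is also given without them. Every library held macrophage markers, whose sum over 6 genes was 5880 CPM or more. Both irradiated arms carried the irradiation response, with all 4 such genes called higher with and without the 5 libraries, among them Cdkn1a by 1.33 (FLASH) and 1.40 (standard) on the log2 scale. The members together made up 0.607% to 1.01% of a library.

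In non-irradiated cells IL-4 was accompanied by higher RNA of the respiratory chain across all 5 complexes. Summed over the 86 members, the 3 M2 libraries held 9902, 9281 and 8488 CPM, against 5984, 6075 and 6166 CPM in the 3 M0 libraries. The 2 groups did not overlap, and the ratio of their means was 1.52. The ratio was 1.73 for complex V, 1.60 for complex III, 1.45 for complex II, 1.40 for complex IV and 1.33 for complex I. Such sums weigh members by their level. In complex V Atp5b alone averaged 1431 of 3663 CPM in M2 libraries and 674 of 2122 CPM in M0 libraries. By median log2 fold change of the members complex III (0.76) stood above complex V (0.58). In bulk RNA, a smaller number of cells of one type and less RNA per cell cannot be told apart.

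**Figure D1:**
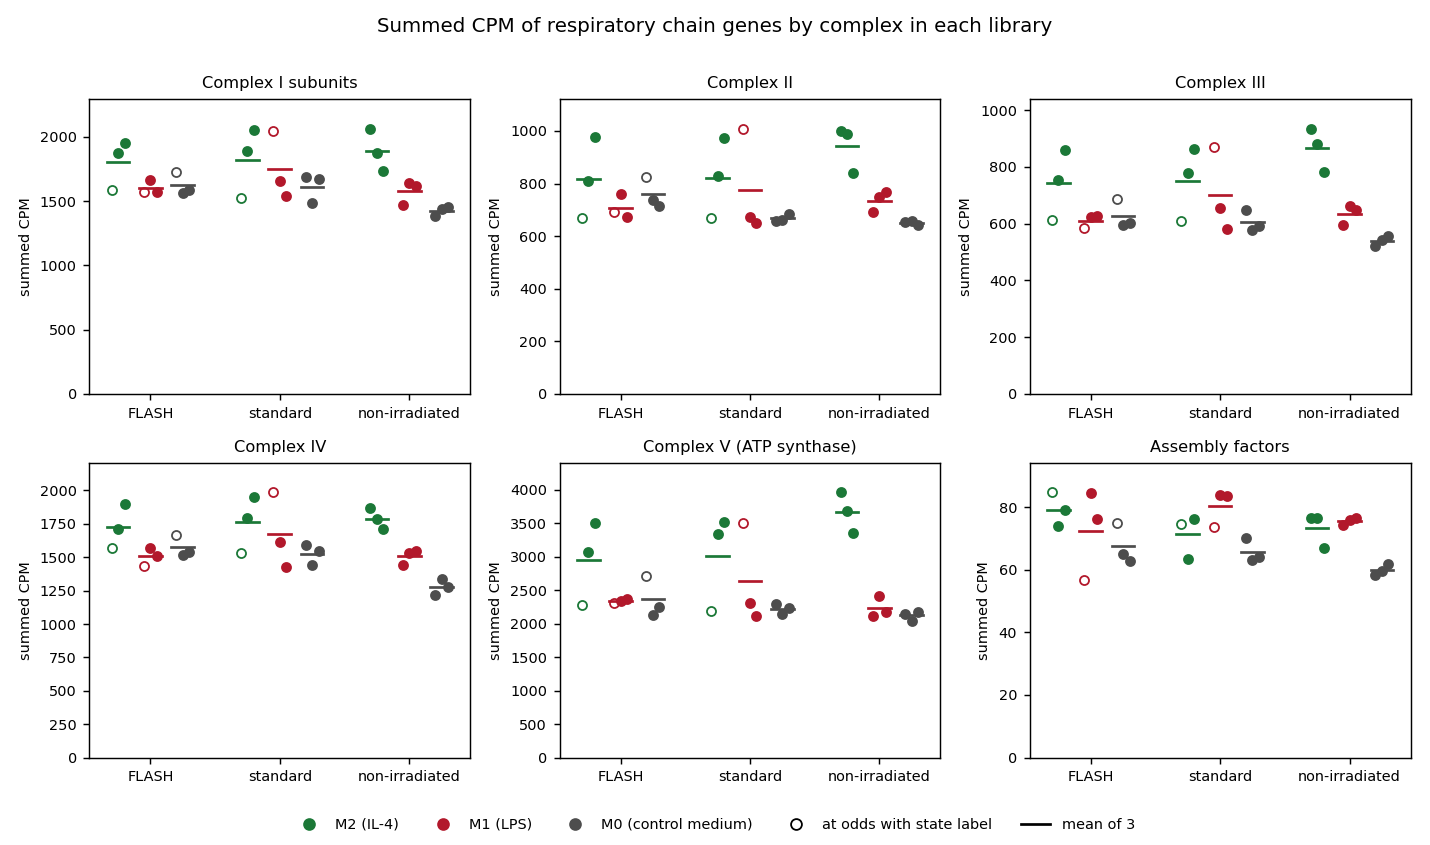
Summed CPM of the members of each complex in every library (vertical axis, CPM from 0) by irradiation arm (horizontal axis), coloured by state; bars are means of 3 libraries and open circles mark the 5 libraries at odds with their state label. In the non-irradiated arm every M2 library lies above every M0 library in all 5 complexes, for complex V at 3354 to 3959.7 against 2045 to 2171 CPM.

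Across members, 31 of 86 were called higher in non-irradiated M2 than in M0 cells and 0 were called lower (limma, adjusted p below 0.05), where 4.93% of all tested genes were called higher and 4.9% lower. The fold change was above 0 in 81 of 86 members, with a median of 0.48 (log2) beside -0.01 for all tested genes. The M2 libraries lay above the M0 libraries without overlap in 64 of 86 members, against 17.9% of all tested genes, and 0 members lay below them without overlap, against 17.8%. Without the 5 libraries at odds, none of which belongs to the groups compared but which enter the shared estimate of spread, 57 members were called higher and 0 lower, where 13.2% of all tested genes were called higher and 12.8% lower. All 31 members were among the 57. Leaving out a single library of these groups gave 18, 12 and 16 called members (M0 replicates 1, 2 and 3) and 10, 12 and 36 (M2 replicates 1, 2 and 3).

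With all 27 libraries complex III had the largest share of called members, 6 of 9, with a median fold change of 0.76. Without the 5 libraries at odds the called members were 21 of 36 (I), 4 of 4 (II), 7 of 9 (III), 10 of 13 (IV) and 13 of 16 (V). Of all tested genes 13.2% were then called higher. Complexes II and V then had larger shares than complex III. Cyc1, the cytochrome c1 subunit that hands electrons to cytochrome c, stood at 135, 108 and 109 CPM in M2 libraries against 57.1, 50.7 and 61.6 CPM in M0 libraries. No M2 library overlapped an M0 library, and the fold change was 1.04 ± 0.17 (log2 ± SE, limma adjusted p = 0.0015). Uqcrc1, a core subunit of complex III, measured 131, 120.0 and 108 CPM in M2 libraries against 62.2, 63.9 and 71.6 CPM in M0 libraries, again without overlap (0.85 ± 0.25, adjusted p = 0.032). Its call was lost whichever library of the 2 groups was left out, with adjusted p of 0.051 to 0.11. Uqcrfs1, the Rieske iron-sulfur protein of the same complex, rose by 0.83 (adjusted p = 0.013).

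In complex V 5 of 16 members were called with all 27 libraries, with a median of 0.58. Atp5b reached 1551, 1381 and 1363 CPM in M2 libraries against 707, 610.3 and 705 CPM in M0 libraries, the largest fold change of any member (1.09 ± 0.21, adjusted p = 0.0037). No M2 library overlapped an M0 library. Atp5o, which joins the ATP synthase stalk to its catalytic head, measured 136, 129 and 108 CPM in M2 libraries and 64.6, 75.8 and 89.1 CPM in M0 libraries (0.70 ± 0.18, adjusted p = 0.020), and its call was lost in 4 of 6 cases with 1 library left out. Atp5a1, the alpha subunit, had a fold change of 0.74 that was not called with all 27 libraries (adjusted p = 0.074) and was called without the 5. The 3 genes of the membrane c-ring subunit, Atp5g1, Atp5g2 and Atp5g3, had fold changes of 0.63, 0.36 and 0.85. None of them was called with all 27 libraries, while Atp5g1 and Atp5g3 were called without the 5.

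In complex IV 5 of 13 members were called with all 27 libraries, with a median of 0.53. Cox5b, a nuclear subunit that binds zinc, stood at 158, 151 and 138 CPM in M2 libraries and 83.9, 82.2 and 83.5 CPM in M0 libraries (0.84 ± 0.18, adjusted p = 0.0083). Cox7b, a small membrane subunit, measured 94.4, 90.8 and 64.3 CPM in M2 libraries and 43.7, 47.1 and 43.5 CPM in M0 libraries (0.87 ± 0.24, adjusted p = 0.025), M2 replicate 3 being the lowest of its group. Leaving out 1 library ended the Cox7b call in 5 of 6 cases. Cox4i1, the common form of subunit 4, had a fold change of 0.43 that was not called with all 27 libraries (limma adjusted p = 0.16). Its alternative form Cox4i2 stayed under 0.488 CPM in every library.

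With all 27 libraries complex I had 13 of 36 members called and a median of 0.43. Complex II had 1 of 4 called and a median of 0.49, and all 4 were called without the 5 libraries. Ndufa11, a membrane-arm subunit of complex I, measured 31.4, 29.7 and 27.4 CPM in M2 libraries and 17.5, 20.0 and 19.1 CPM in M0 libraries (0.63 ± 0.14, adjusted p = 0.0092). Ndufc1, another accessory subunit, measured 37.0, 34.1 and 24.9 CPM in M2 libraries and 19.8, 17.1 and 24.1 CPM in M0 libraries (0.64 ± 0.19, adjusted p = 0.034); its groups came within 1 CPM of each other, and leaving out 1 library ended the call in 4 of 6 cases. Ndufb8, an accessory subunit often used to follow assembled complex I, rose by 0.51 (adjusted p = 0.035). The core subunits that bind flavin and iron-sulfur clusters, Ndufv1 and Ndufs1, had fold changes of 0.49 and 0.34 and were not called with all 27 libraries (adjusted p = 0.094 and 0.45). Sdhd measured 154, 157 and 117 CPM in M2 libraries and 99.6, 102 and 100.3 CPM in M0 libraries (0.49 ± 0.14, adjusted p = 0.036), and lost its call in 5 of 6 cases with 1 library left out. Sdha, the flavoprotein that oxidises succinate, had a fold change of 0.64 that was not called with all 27 libraries (limma adjusted p = 0.098). It was called without the 5, and its 3 M2 libraries (455, 468 and 412 CPM) all lay above its M0 libraries (287, 306 and 266 CPM).

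Of the 8 assembly factors only Ndufaf5, a complex I assembly factor, was called in M2 cells with all 27 libraries (0.80 ± 0.20, limma adjusted p = 0.016). Its call was lost in 3 of 6 cases with 1 library left out. The median fold change of the 8 was 0.13. Without the 5 libraries 2 of the 8 were called higher, among them Ndufaf4, where 13.2% of all tested genes were. The 5 members with a fold change below 0 in M2 cells were Cox7a2l, Atp5sl, Ndufaf7, Ndufb3 and Ndufa9, and none of them was called. Cox7a2l, a homologue of complex IV subunit 7A, stood at 100.2, 103 and 169 CPM in M2 libraries and 142, 164 and 137 CPM in M0 libraries. M2 replicates 1 and 2 lay below the M0 libraries and M2 replicate 3 above them (-0.29, adjusted p = 0.38).

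**Figure D2:**
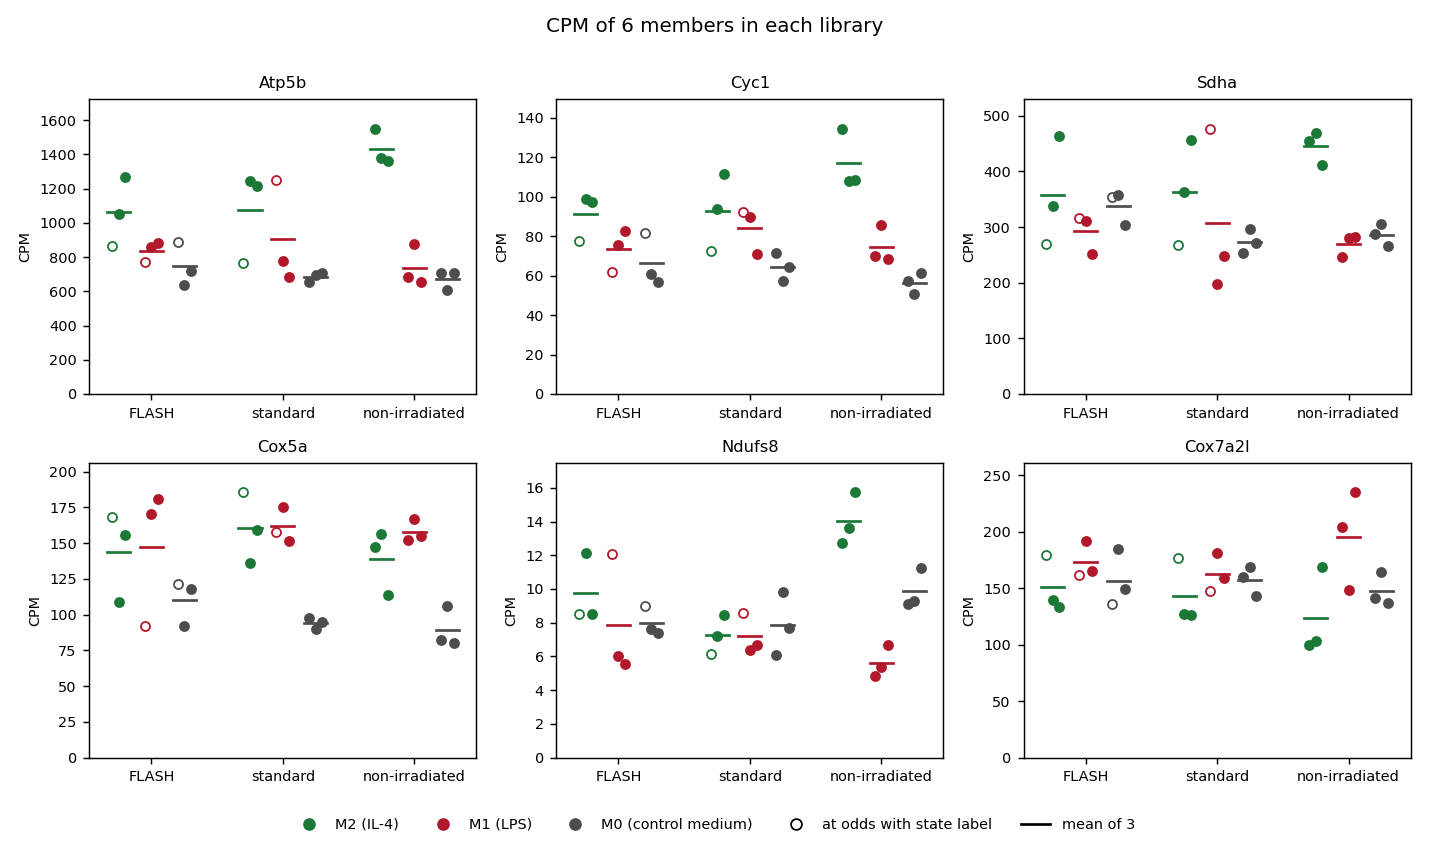
CPM of 6 members in every library (vertical axis, CPM from 0) by irradiation arm, coloured by state, with means of 3 libraries as bars and the 5 libraries at odds as open circles. In the non-irradiated arm Atp5b, Cyc1 and Sdha lie higher in every M2 than in every M0 library, Cox5a lies higher in every M1 than in every M0 library, and Ndufs8 (4.84 CPM) has its lowest and Cox7a2l (235 CPM) its highest value in an M1 library.

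LPS gave a smaller and mixed difference. Summed over the 86 members, the 3 non-irradiated M1 libraries held 6392, 7076 and 6820.3 CPM, against 5984, 6075 and 6166 CPM in the 3 M0 libraries, with a ratio of means of 1.11. By complex the ratio was 1.10 (I), 1.13 (II), 1.18 (III), 1.18 (IV) and 1.05 (V). Of the 86 members 17 were called higher and 1 lower in M1 than in M0 cells, where 9.87% of all tested genes were called higher and 7.54% lower, and the median fold change was 0.19. Without overlap between libraries, 38 members were higher (22.8% of all tested genes) and 8 lower (22.5%). Without the 5 libraries at odds, 24 members were called higher and 3 lower, where 17.9% and 16.8% of all tested genes were. The count of called members fell to 4, 6, 4 and 10 when M0 replicate 1, M0 replicate 3, M1 replicate 2 or M1 replicate 3 was left out.

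The members called higher in M1 cells included 3 complex I assembly factors and subunits of complexes I to IV. Ndufaf5 measured 8.71, 9.46 and 9.26 CPM in M1 libraries and 3.91, 3.99 and 4.26 CPM in M0 libraries (1.08 ± 0.20, adjusted p = 0.0023). Ndufaf1, which helps build the complex I membrane arm, measured 13.5, 14.0 and 12.1 CPM in M1 libraries and 8.44, 8.2 and 6.7 CPM in M0 libraries (0.73 ± 0.16, adjusted p = 0.0064), and Ndufaf3 was the third assembly factor called (0.72, adjusted p = 0.045). Sdhb, the iron-sulfur subunit of succinate dehydrogenase, stood at 195, 196 and 217 CPM in M1 libraries and 129, 133 and 147 CPM in M0 libraries (0.58 ± 0.13, adjusted p = 0.0068). In all 4 of these genes the M1 and M0 libraries did not overlap, and the Ndufaf5, Ndufaf1 and Sdhb calls held with any 1 library left out.

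Cox5a, a complex IV subunit known to bind a thyroid hormone metabolite, stood at 152, 167 and 155 CPM in M1 libraries and 82.4, 106 and 80.2 CPM in M0 libraries (0.82 ± 0.21, adjusted p = 0.012). Cox6a2, the heart and muscle form of subunit 6A, was low throughout, with 5.45, 7.13 and 8.45 CPM in M1 libraries and 1.53, 2.79 and 2.0 CPM in M0 libraries (1.53 ± 0.48, adjusted p = 0.032). In complex III only Uqcrq, a small membrane subunit, was called with all 27 libraries (0.67 ± 0.14, limma adjusted p = 0.0048). Without the 5 libraries 4 of 9 members of complex III were called higher, where 17.9% of all tested genes were. In complex I the largest called rises were Ndufs3 (0.59, adjusted p = 0.0097), a core subunit, and Ndufc2 (0.58, adjusted p = 0.030), an accessory one. With 1 library left out, the call of Ndufc2 was lost in 5 of 6 cases, that of Cox6a2 in 4, that of Cox5a in 3 and that of Ndufs3 in 2, while that of Uqcrq held in all 6. No member of complex V was called with all 27 libraries, where limma gave adjusted p of 0.05 or more for all 16. Without the 5 libraries 1 of 16 was called higher and 1 lower, where 17.9% and 16.8% of all tested genes were.

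Ndufs8, a core complex I subunit that carries iron-sulfur clusters, was the only member called lower in M1 than in M0 cells. It measured 4.84, 5.39 and 6.65 CPM in M1 libraries and 9.09, 9.32 and 11.3 CPM in M0 libraries (-0.77 ± 0.24, adjusted p = 0.030), and its call was lost in 5 of 6 cases with 1 library left out. Without the 5 libraries Ndufs1 and Atp5a1 were also called lower. Ndufs1 measured 49.4, 50.9 and 49.5 CPM in M1 libraries and 73.8, 71.1 and 73.3 CPM in M0 libraries, a narrow spread in each group (-0.54, adjusted p = 0.16 with all 27 libraries).

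The comparisons of M2 and of M1 with M0 share the M0 libraries, so M1 was also set against M2 directly. Of 86 members 27 were called lower and 4 higher in M1 than in M2 cells, where 14.6% of all tested genes were called lower and 15.9% higher, with a median of -0.32. Leaving out the 5 libraries, 40 were lower and 7 higher (21% and 21.4% of all tested genes). Leaving out M1 replicate 1, 2 or 3 gave 15, 18 and 16 called members, and leaving out M2 replicate 1 or 2 gave 13 and 14. Libraries were lower without overlap in 41 members (23.4% of all tested genes) and higher in 7 (23.9%).

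The members lower in M1 than in M2 cells included core subunits of complexes I, II, III and V, and Cox4i1 of complex IV. Atp5a1 measured 249, 265 and 239.7 CPM in M1 libraries and 561, 543 and 500.0 CPM in M2 libraries (-1.09 ± 0.26, adjusted p = 0.0049). Ndufs8 differed most of all called members (-1.25 ± 0.24, adjusted p = 0.0010), and its M2 libraries held 12.7, 13.6 and 15.7 CPM. Uqcrc1 was lower in M1 than in M2 cells by 0.91 (limma adjusted p = 0.010), Sdha by 0.72 (adjusted p = 0.028) and Cox4i1 by 0.60 (adjusted p = 0.022). Against M0 cells the M1 ratio of means was 0.96 (Uqcrc1), 0.94 (Sdha) and 0.89 (Cox4i1). With 1 library left out, the calls of Ndufs8, Atp5a1 and Uqcrc1 held in all 6 cases, while that of Sdha was lost in 5 and that of Cox4i1 in 4. The 4 members higher in M1 than in M2 cells were Cox7a2l (0.67 ± 0.20, adjusted p = 0.015), Ndufaf1 (0.67, adjusted p = 0.0052), Ndufaf3 (0.66, adjusted p = 0.043) and Ndufb3 (0.42, adjusted p = 0.016). Cox7a2l stood at 204, 148 and 235 CPM in M1 libraries and 100.2, 103 and 169 CPM in M2 libraries, so M1 replicate 2 lay below M2 replicate 3. With 1 library left out, its call was lost in 3 of 6 cases, that of Ndufaf3 in 5 and that of Ndufb3 in 2, while that of Ndufaf1 held in all 6.

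**Figure D3:**
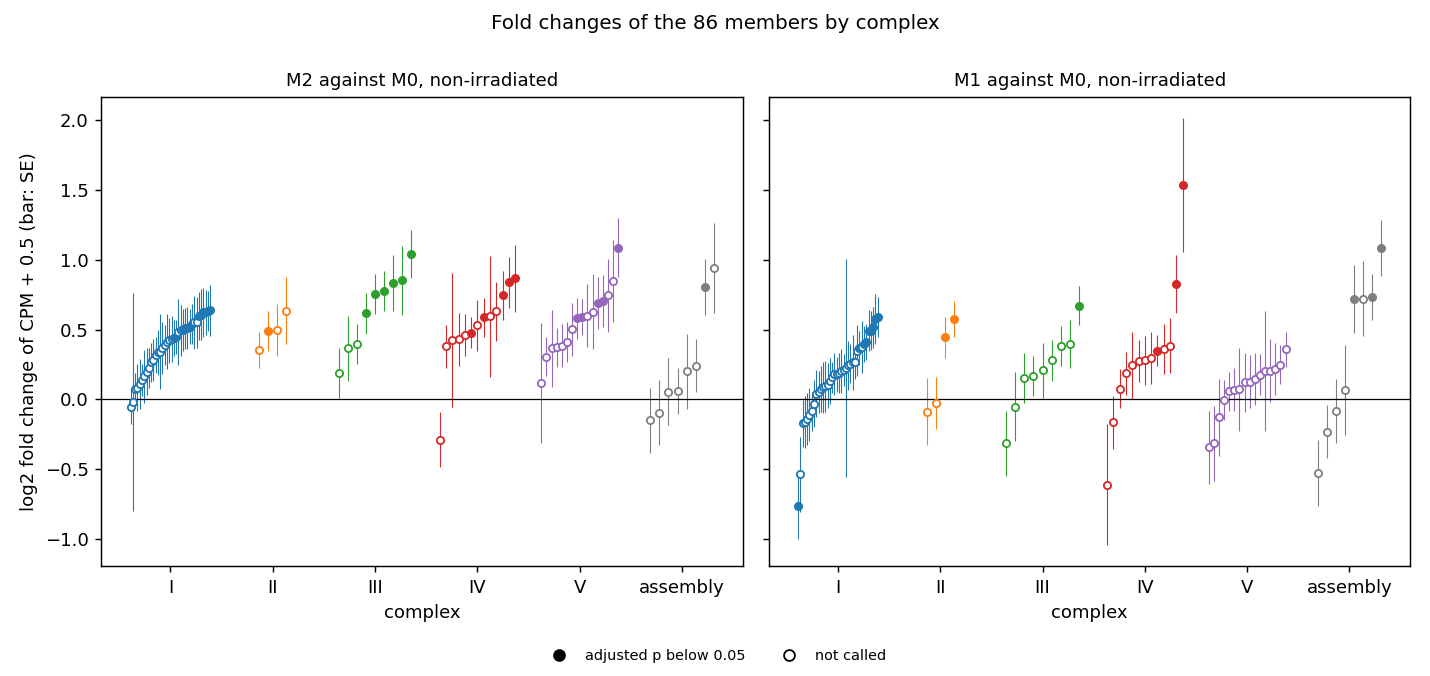
Log2 fold change of every member in non-irradiated cells for M2 against M0 and M1 against M0, grouped by complex, with filled points for members called at an adjusted p below 0.05. The M2 points lie above 0 in 81 of 86 members, and the M1 points in 65 of 86.

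The calls of the 4 genes of succinate dehydrogenase varied by comparison, and no difference between the genes was tested. In M2 against M0 cells Sdhd alone was called with all 27 libraries. Without the 5 all 4 were called higher, where 13.2% of all tested genes were. In M1 cells Sdhb and Sdhd were called higher than in M0 cells, while Sdha (-0.09, adjusted p = 0.83) and Sdhc (-0.03, adjusted p = 0.94) were not called. In M1 against M2 cells Sdha and Sdhc were called lower, while Sdhb had a fold change of 0.22 (adjusted p = 0.21). Of the calls with all 27 libraries only that of Sdhb held with any 1 library left out. Those of Sdhd (M2 and M1 against M0) and of Sdha and Sdhc (M1 against M2) were each lost in 5 of 6 cases. Sdhc, a membrane anchor, measured 129, 137 and 111 CPM in M1 libraries and 204, 193 and 148 CPM in M2 libraries.

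Markers of other cells moved with the states in these non-irradiated cultures. Against M0 libraries, 4 of 9 neutrophil lineage markers and 1 of 5 B lineage markers were called lower in M2 libraries. Their summed levels were 43.0 to 321 CPM (neutrophil) and 30.8 to 59.8 CPM (B) in M2 libraries, and 519 to 908 CPM and 110.3 to 143 CPM in M0 libraries. The defining neutrophil gene Elane was listed at 0 in 1 M2 library. In M1 libraries 1 of 9 neutrophil markers was called lower (summed 112 to 318 CPM), and 2 of 4 tested T and NK markers were called higher (summed 40.0 to 55.5 CPM in M1 and 2.22 to 5.40 CPM in M0 libraries). Summed macrophage markers were 5880 to 6830 CPM in M2 libraries and 14559 to 17622 CPM in M0 libraries, with 3 of 6 called lower. Without the 5 libraries the neutrophil markers called lower were 5 in M2 and 4 in M1 libraries, and the macrophage markers called lower in M2 libraries were 4. The part of these differences in the respiratory chain results was not tested.

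Other mitochondrial genes were read against the same shares of all tested genes, 4.93% called higher in M2 and 9.87% in M1 against M0 cells. Among 77 mitochondrial ribosomal protein genes, which make the proteins encoded by mitochondrial DNA, 12 were called higher and 0 lower in M2 than in M0 cells (median 0.39), and 24 higher and 1 lower in M1 than in M0 cells (median 0.31). Of 13 carriers and exchangers 4 were called higher in M2 cells, including Cycs, the mobile cytochrome c (1.01, adjusted p = 0.018), and Slc25a5, an ATP/ADP carrier (0.81, adjusted p = 0.032). In M1 cells Cycs was likewise called higher (1.16, adjusted p = 0.0064) and Ucp2, an inner-membrane uncoupling protein, lower (-1.48, adjusted p = 0.028). Coenzyme Q synthesis genes were called higher in 3 of 11 cases in M2 cells and 1 of 11 in M1 cells, the M1 share being near that of all tested genes. Leaving out the 5 libraries raised the M2 counts to 35 (mitochondrial ribosome), 10 (carriers) and 4 (coenzyme Q). The M1 counts higher were then 33, 2 and 3. The shares of all tested genes called higher were then 13.2% (M2) and 17.9% (M1), and the M1 carriers lay near theirs.

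Of 35 tested assembly factors outside the name rule, 2 were called higher in M2 and 10 in M1 cells. The M2 count was near the share of all tested genes. Without the 5 libraries, where 13.2% (M2) and 17.9% (M1) of all tested genes were called higher, the assembly factor counts were 10 and 15. The largest was Sco1, a copper chaperone of complex IV, at 39.5, 48.9 and 38.4 CPM in M1 libraries against 8.13, 10.3 and 9.09 CPM in M0 libraries (2.14, adjusted p = 0.00015). Of 15 regulators 0 were called in M1 cells (limma, 2 of 15 at an unadjusted p below 0.05 in each of M2 and M1). In M2 cells 1 was called, near the 4.93% of all tested genes called higher. That 1 was Ppargc1b, a coactivator of respiratory genes, at 17.7, 16.4 and 12.0 CPM in M2 libraries against 3.41, 4.55 and 3.57 CPM in M0 libraries (1.86, adjusted p = 0.022). Nrf1 (-0.20, adjusted p = 0.69), Gabpa (0.12, adjusted p = 0.59) and Yy1 (-0.09, adjusted p = 0.73), whose letters were searched above, were not called at the RNA level in M2 cells.

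The subunits encoded by mitochondrial DNA had another pattern. Their 13 genes summed to 9414 to 11936 CPM in M2 libraries and 11319 to 12522 CPM in M0 libraries, and 0 of 13 were called in M2 against M0 cells (limma; 0 at an unadjusted p below 0.05), with a median of -0.09. In M1 libraries the sum was 4968 to 5615 CPM, and all 13 were called lower than in M0 cells, with a median of -1.44. mt-Cytb, the cytochrome b of complex III, measured 276, 295 and 256 CPM in M1 libraries and 940.2, 858 and 939 CPM in M0 libraries (-1.73, adjusted p = 0.0057). Without the 5 libraries 1 was called higher in M2 cells, and all 13 were again called lower in M1 cells. Both sets include subunits of complexes I, III, IV and V.

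**Figure D4:**
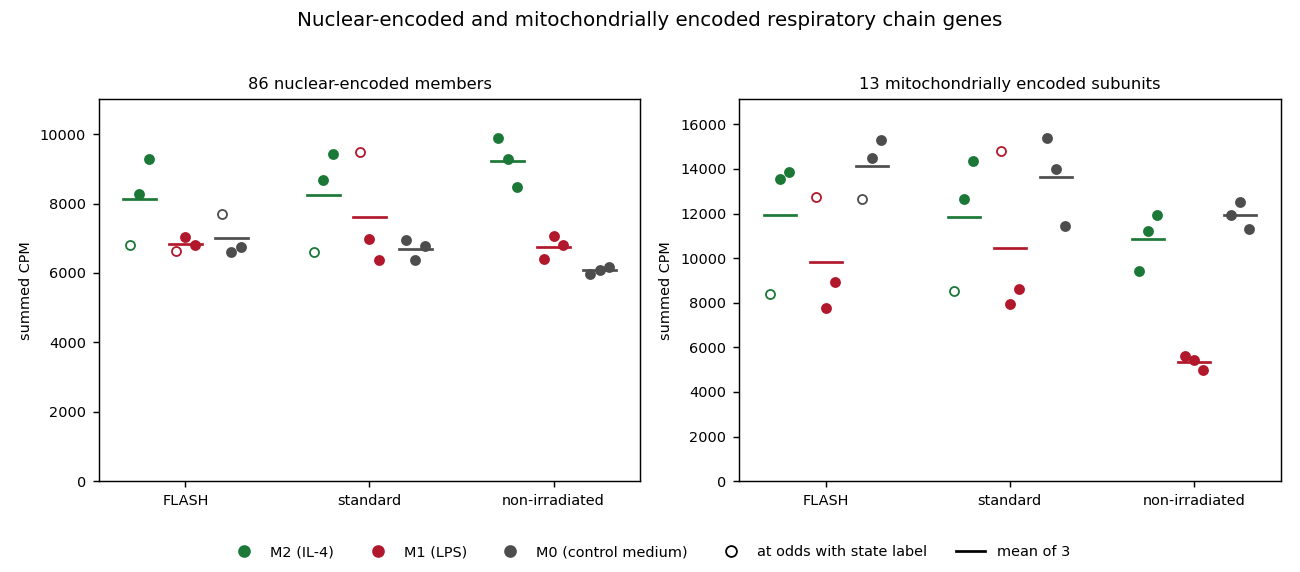
Summed CPM of the 86 nuclear-encoded members (left) and of the 13 mitochondrially encoded subunits (right) in every library, by irradiation arm and state, with means of 3 libraries as bars and the 5 libraries at odds as open circles. In non-irradiated cells the nuclear sum is highest in M2 libraries (8488 to 9902 CPM), while the mitochondrial sum is lowest in M1 libraries (4968 to 5615 CPM).

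In irradiated cells the state response of the members depended on the 5 libraries at odds. With all 27 libraries 0 members were called in M2 against M0 cells of either irradiated arm (limma; 6 in the FLASH arm and 16 in the standard arm had an unadjusted p below 0.05), where 0% of all tested genes were called in the FLASH arm and 0.474% in the standard arm. Once the 5 libraries were left out, 24 members were called higher and 0 lower in FLASH M2 against FLASH M0 cells, and 27 higher and 0 lower in standard M2 against standard M0 cells, where 6.32% and 7% of all tested genes were called higher and 5.65% and 7.31% lower. These fits leave 2 libraries in FLASH M2, FLASH M0 and standard M2 and 3 in standard M0. The median fold change was 0.31 and 0.35 in the FLASH and standard arms, and 0.48 in non-irradiated cells, each arm having its own M0 libraries. Of the members called, 20 were called in all 3 arms. They included Atp5b, Cyc1, Uqcrc1, Cox5b, Cox7b and Ndufs1.

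Without the libraries at odds, the 2 FLASH M2 libraries held 8288 and 9276 CPM of the 86 members against 6609 and 6761 CPM in the 2 FLASH M0 libraries, and the 2 standard M2 libraries held 8691 and 9429 CPM against 6376 to 6941 CPM in the 3 standard M0 libraries. The ratio of means was 1.31 (FLASH) and 1.35 (standard); with all libraries it was 1.16 and 1.23. Atp5b measured 1050.5 and 1269 CPM in the FLASH M2 libraries against 635 and 721 CPM in the FLASH M0 libraries (0.77, adjusted p = 0.0016). In the standard arm it measured 1246 and 1215 CPM in M2 libraries against 654, 696 and 709 CPM in M0 libraries (0.84, adjusted p = 0.00026). Atp5b in the library labelled FLASH M0 replicate 1 was 890.1 CPM, and in that labelled standard M1 replicate 1 it was 1252 CPM.

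For M1 against M0, 0 members were called in either irradiated arm with all 27 libraries (limma; 4 and 15 at an unadjusted p below 0.05 in the FLASH and standard arms), where 0% of all tested genes were called in each. Leaving out the 5 libraries, 6 were called higher and 7 lower in each arm. In the FLASH arm 11.7% and 12.8% of all tested genes were called higher and lower, and in the standard arm 12% and 11.4%. Sdhb, Cox5a and Ndufc2 were called higher, and Ndufs1 and Atp5a1 lower, in all 3 arms. Cox4i1 was called lower in both irradiated arms, at 299.6 and 264 CPM in the FLASH M1 libraries against 448 and 415 CPM in the FLASH M0 libraries (-0.62, adjusted p = 0.00063). In the standard arm Cox4i1 measured 307 and 294 CPM in M1 libraries against 428, 419 and 469 CPM in M0 libraries (-0.54, adjusted p = 0.00086). The 13 mitochondrially encoded subunits were called lower in 13 (FLASH) and 12 (standard) cases.

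No member was called for a difference in its state response between an irradiated arm and non-irradiated cells. The interaction with M2 called 0 members for FLASH and for standard irradiation (limma; 12 and 4 at an unadjusted p below 0.05, all of them lower, with smallest adjusted p of 0.71 and 0.89), and 0% of all tested genes in each. The M2 interaction was below 0 in 78 of 86 members for FLASH and 77 of 86 for standard irradiation, with medians of -0.31 and -0.24, or -0.16 and -0.12 without the 5 libraries. The interaction with M1 called 0 members in each arm (7 and 4 at an unadjusted p below 0.05), and 0.12% (FLASH) and 0.0902% (standard) of all tested genes. These 4 counts were again 0 without the 5 libraries, where 0% (FLASH with M2), 0.0226% (standard with M2) and 0.384% (each arm with M1) of all tested genes were called. The SE of a single member's interaction had a median of 0.25 on the log2 scale. The 3 members with the smallest p for FLASH with M2 were Uqcrq (-0.57), Ndufb4 (-0.57) and Ndufa6 (-0.49).

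Averaged over the 3 states with equal weight, irradiation came with few called members. Within states, the median member fold change was above 0 in M0 and below 0 in M2 cells, as given below. FLASH against non-irradiated cells called 2 of 86 higher and 0 lower, where 3.26% of all tested genes were higher and 4.47% lower. Standard irradiation called 4 higher and 0 lower, where 3.36% and 4.52% were. The comparisons share the non-irradiated libraries. The median member fold change was 0.03 for FLASH and 0.08 for standard, beside -0.01 for all tested genes in each. When the 5 libraries were left out, 5 (FLASH) and 9 (standard) members were called higher and 0 lower, where 7.34% and 8.11% of all tested genes were higher and 6.96% and 9.81% lower. The members' shares called higher lay near those of all tested genes.

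**Figure D5:**
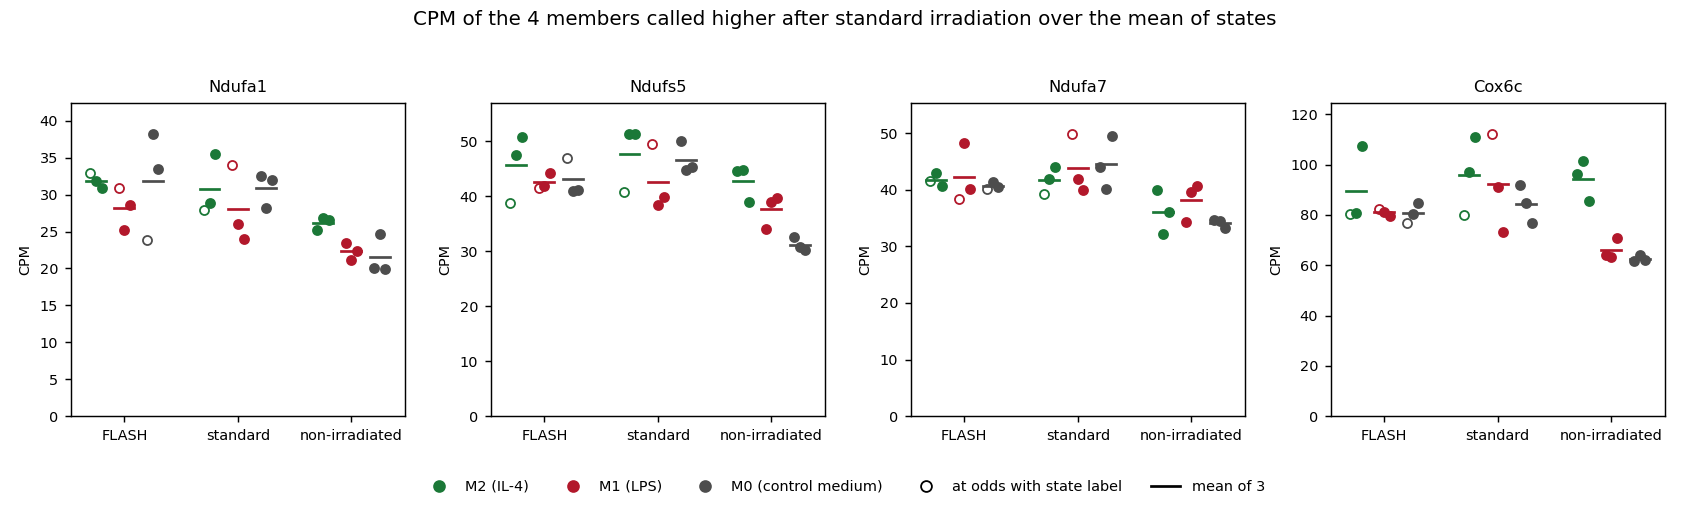
CPM of the 4 members called higher after standard irradiation, in every library (vertical axis, CPM from 0) by irradiation arm and coloured by state, with means of 3 libraries as bars and the 5 libraries at odds as open circles. For Ndufa1 the 9 FLASH libraries span 23.9 to 38.2 CPM, the 9 standard libraries 24.0 to 35.5 CPM and the 9 non-irradiated libraries 19.9 to 26.8 CPM.

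Ndufa1, an accessory complex I subunit encoded on the X chromosome, was called in both arms. It measured 32.9, 31.8 and 30.9 CPM in FLASH M2 libraries, 30.9, 25.1 and 28.6 CPM in FLASH M1 libraries and 23.9, 38.2 and 33.4 CPM in FLASH M0 libraries. In standard libraries it ranged from 24.0 to 35.5 CPM, and in non-irradiated libraries from 19.9 to 26.8 CPM, so the arms overlapped at their edges. The fold change over states was 0.38 ± 0.09 for FLASH (adjusted p = 0.0098) and 0.35 ± 0.09 for standard irradiation (adjusted p = 0.017), and both calls held with any 1 library left out; without the 5 libraries the fold changes were 0.41 and 0.32, both called. Ndufs5, a small complex I subunit of the intermembrane space side, was likewise called after FLASH (0.24 ± 0.07, adjusted p = 0.037) and standard irradiation (0.30 ± 0.07, adjusted p = 0.0094). Its levels were 38.7 to 50.8 CPM in FLASH, 38.4 to 51.4 CPM in standard and 30.2 to 44.7 CPM in non-irradiated libraries. The FLASH call of Ndufs5 was lost in 10 of 18 cases with 1 library left out, and 1 called member then remained for FLASH; without the 5 libraries both calls of Ndufs5 held (0.26 and 0.30).

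Ndufa7, an accessory complex I subunit, and Cox6c, a small complex IV subunit, were called after standard irradiation (0.26 ± 0.06, adjusted p = 0.014, and 0.30 ± 0.08, adjusted p = 0.025). After FLASH their fold changes were 0.20 (adjusted p = 0.059) and 0.19 (adjusted p = 0.17). Both were called in both arms without the 5 libraries, Ndufa7 at 0.23 (FLASH) and 0.24 (standard) and Cox6c at 0.22 (FLASH) and 0.29 (standard). The standard call of Cox6c was lost in 4 of 18 cases with 1 library left out. The direct comparison of FLASH with standard irradiation over the states called 0 members (limma; 0 at an unadjusted p below 0.05), and 0% of all tested genes. The difference, FLASH minus standard, was below 0 in 68 of 86 members with a median of -0.04, and the member with the smallest p was the assembly factor Ndufaf2 (-0.20 ± 0.11, adjusted p = 0.999953). The count was again 0 without the 5 libraries, with 0% of all tested genes called, and the median was -0.01.

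State by state, Ndufs5 in M0 cells was the only call with all 27 libraries. It measured 50.01, 44.7 and 45.4 CPM in standard M0 libraries against 32.6, 30.7 and 30.2 CPM in non-irradiated M0 libraries, without overlap (0.57 ± 0.12, adjusted p = 0.011; 0.677% of all tested genes were called higher and 1.35% lower). Leaving out non-irradiated M0 replicate 3 or standard M0 replicate 1 ended this call. FLASH M0 libraries held 46.9, 41.1 and 41.2 CPM of Ndufs5 (0.46, adjusted p = 0.0502, not called; 0.489% of all tested genes were called higher and 1.62% lower). After the 5 libraries were left out, 2 members (Ndufa1 and Ndufs5) were called higher in FLASH M0 cells and 5 (Ndufs5, Ndufa1, Ndufa7, Cox6c and Cox4i1) in standard M0 cells, where 2.41% and 3.28% of all tested genes were higher and 2.88% and 4.08% lower. In M0 cells 30 members were higher without overlap after FLASH (11.3% of all tested genes) and 26 after standard irradiation (13.9%), and 1 and 0 were lower (13% and 14.9%). With FLASH M0 replicate 1 left out the FLASH counts were 35 higher and 1 lower (19.4% and 17.9% of all tested genes, with 2 libraries against 3). The median member fold changes were 0.19 and 0.17, or 0.13 and 0.17 without the 5 libraries. The sum over members in the 5 irradiated M0 libraries that followed their label was 6376 to 6941 CPM, above the 5984 to 6166 CPM of the 3 non-irradiated M0 libraries.

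In M1 cells 0 members were called for FLASH or standard irradiation (limma; 4 and 6 at an unadjusted p below 0.05), where 2.53% and 2.6% of all tested genes were called in either direction; without the 5 libraries the counts were again 0, where 4.84% and 5.52% were. In M2 cells 0 members were called for either (4 and 4 at an unadjusted p below 0.05), where 1.1% and 1.35% of all tested genes were called. The median member fold changes (FLASH and standard) were 0.01 and 0.17 in M1 cells and -0.10 and -0.08 in M2 cells. Without overlap, 2 and 1 members were higher in M2 cells (9.46% and 8.01% of all tested genes). Lower were 9 and 7, near the shares of all tested genes (8.69% and 9.9%). In M1 cells 8 and 13 were higher (10.5% and 11.8%) and 3 and 3 lower (13.4% and 14.2%). Each of these irradiated groups includes a library at odds. The smallest p in M2 cells was that of Ndufs8, at 6.13, 7.19 and 8.45 CPM in standard M2 libraries against 12.7, 13.6 and 15.7 CPM in non-irradiated M2 libraries. The groups did not overlap (-0.91 ± 0.24, adjusted p = 0.062), and without the library labelled standard M2 replicate 1 and the other 4 the fold change was -0.80 and was called (adjusted p = 0.038), the only member called in M2 cells then, where 3.28% (FLASH) and 3.38% (standard) of all tested genes were. FLASH M2 libraries held 8.52, 12.2 and 8.53 CPM of Ndufs8 (-0.52, adjusted p = 0.34).

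Markers of other cell types also differed with irradiation. All 9 neutrophil lineage markers were called lower in each irradiated arm, with sums of 15.4 to 92.5 CPM in FLASH, 5.90 to 25.5 CPM in standard and 43.0 to 908 CPM in non-irradiated libraries. B lineage markers were called lower in 5 (FLASH) and 4 (standard) of 5 cases, with sums of 6.88 to 20.6, 5.82 to 23.3 and 30.8 to 143 CPM in FLASH, standard and non-irradiated libraries. All 9 neutrophil and all 5 B lineage markers were called lower in each arm without the 5 libraries. Ctsg, a neutrophil granule protease, was listed at 0 in 3 FLASH and 6 standard libraries. Proliferation markers were called in 0 of 5 cases in each arm (limma; 2 and 1 at an unadjusted p below 0.05). Their part in the differences of Ndufa1, Ndufs5, Ndufa7 and Cox6c was not tested. Of the mitochondrially encoded subunits, 2 of 13 (FLASH) and 1 of 13 (standard) were called higher, among them mt-Co1, the catalytic subunit of complex IV (0.54 and 0.50, adjusted p = 0.0013 and 0.0024); without the 5 libraries 10 and 11 were.

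Across all 27 libraries most members moved together. The Spearman correlation of a member with the summed CPM of the other members had a median of 0.67, lay above 0.8 for 24 members and below 0 for 5, and was highest for Cox8a (0.95), a small membrane subunit of complex IV. The 5 below 0 were Cox7a2l (-0.52), Atp5sl, Ndufaf3, Ndufa9 and Ndufb3. These are descriptions over libraries that share the CPM scale. Without the 5 libraries at odds the median was 0.68 and the value for Cox7a2l was -0.51.

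Ndufa9, a widely expressed complex I subunit, passed the minimum but was listed at 0 in 8 of 27 libraries and reached at most 2.50 CPM. Ndufa4, a complex IV subunit that is likewise widely expressed, fell short of the minimum at no more than 0.242 CPM. Ndufa4l2 (0.304), Cox4i2 (0.487), Cox6b2 (0.807), Cox8b (0.0483) and Atp5l2-ps (0.131) gave the highest CPM of the other matching symbols left out. Just inside the minimum stood Ndufa9 and, at 0.201 to 2.36 CPM, Atp5s, known as coupling factor B. Why Ndufa9 and Ndufa4 were low was not tested. Several members have processed pseudogenes or near-identical relatives, so their levels depend on how the authors' quantification divided shared reads.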

How the data were processed

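RNA-seq was deposited for 27 libraries in 9 groups taken from the labels. The authors used kallisto 0.46.1, edgeR 3.36.0 and R 4.0.5, per the submitters' processing notes, which give no order or role. The deposited signal of each gene is a CPM on a linear scale, whose column sums of 929399.7 to 1072727.2 are those of scaled library sizes. The notes name the build GRCh38, a human one, for these mouse samples, so no gene coordinates are taken from the table. The promoter windows are RefSeq's; the letters searched are the first 7 of longer strings searched earlier in the same windows. The file gives no read totals, so no interval that needs them was computed. Of 19070 entries, 1 had no symbol (0.0048% to 0.00799% of a library) and was left out.

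Genes with 1 CPM in at least 3 libraries were fitted as log2(CPM + 0.5), which understates changes of low genes, with 9 group means over all 27 libraries by limma (version 3.58.1, with eBayes trend and robust; statmod 1.5.0 and R 4.3.3), and p-values were Benjamini-Hochberg adjusted over the 13297 tested genes in each of 20 comparisons, calling genes below 0.05. The script was tested on simulated data. Alternatives were other pseudocounts and filters, median-of-ratios scaling, no trend, only the compared groups, a replicate block, and libraries left out. Named genes were a fixed set per complex and, per comparison and complex, up to 2 called members per direction with the largest fold change (at least 5 CPM in the higher group), or the 3 smallest p where none was called. Other named genes, such as the marker, ribosomal and carrier examples, were chosen after their values were seen. The members and lists were chosen with earlier results of these data known.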

Additional observations from a re-analysis of the deposited data

How the results depend on the processing

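The 41 called results of named members were recomputed under each alternative, and no other gene was; none of these 41 changed direction, and of their 716 values 582 kept their side of the threshold and 134 lost their call. Median-of-ratios scaling moved the median of all genes by less than 0.1 (log2) in every comparison. Counts of called members that moved by over 1.5 times were, without the 5 libraries, 57 (M2 against M0, non-irradiated), 47 (M1 against M2), 24 and 27 (M2 against M0, FLASH and standard), 13 and 13 (M1 against M0, FLASH and standard), 5 and 9 (FLASH and standard over states), 2 and 5 (FLASH and standard in M0) and 1 (standard in M2). With replicates 2 and 3 only they were 21 and 26 (M2 against M0, FLASH and standard), 10 and 7 (M1 against M0) and 2 (FLASH in M0). A fit without the variance trend gave 1 for FLASH over states, a pseudocount of 2 gave 1 for FLASH in M0, and a fit of only the groups compared gave 2 for standard in M0. The cause was not tested.

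Same-numbered libraries did not deviate together: correlations of their deviations ran from -0.85 to 0.78, and in 2 of 36 pairs of groups all were over 0.1, so the numbers were not taken to pair the libraries. These correlations include the 5 libraries at odds, all of them replicate 1; among the non-irradiated groups they ran from -0.13 to 0.0965. The titles carry a code shared by same-numbered libraries of all groups, whose meaning is not given, so a shared day or batch cannot be told apart from the number. A replicate block gave 22 called members for M2 against M0, 9 for M1 against M0 and 21 for M1 against M2 in non-irradiated cells, 1 for FLASH and 4 for standard irradiation over states. Of the 41 results, 11 were not called with the block: Ndufc1, Sdhd and Uqcrc1 (M2 against M0), Ndufc2, Ndufs8, Sdhd and Cox6a2 (M1 against M0), Sdhc, Ndufaf3 and Ndufaf4 (M1 against M2), and Ndufs5 (FLASH over states), with adjusted p of 0.0500075 to 0.0670476.

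Leaving out 1 library at a time gave 10 to 36 called members for M2 against M0, 4 to 13 for M1 against M0 and 13 to 27 for M1 against M2 in non-irradiated cells. It gave 0 to 1 for M1 against M0 in the FLASH arm, 1 to 3 for FLASH and 3 to 4 for standard irradiation over states, and 0 to 1 for FLASH in M0, standard in M0 and standard in M1. With 3 libraries a group, and 2 where libraries at odds were left out, spread limits the smaller changes, and members near 1 CPM are the least certain.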
